A study of Mus musculus with 42 samples.

Results

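The 6 genes described here, Cd79a, Cd79b, Blk, Pou2af1, Jchain (formerly Igj) and Ly6d, are transcripts of B cells and plasma cells, measured in the livers of old mice fed rapamycin (Rapa) or a control diet. They were chosen by name, and all probes carrying one of these symbols in the platform annotation were taken. Of 11615 genes with a symbol in the log2 table that the authors deposited, these are 6, and they gave 9 of the 25697 probes on the array, with 1 probe each for Cd79a, Pou2af1 and Jchain and 2 each for Cd79b, Blk and Ly6d. All 9 are among the 17082 probes of that table.

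Liver RNA of 42 C57BL6/N mice was hybridized to Illumina Mouse Ref8 v2 microarrays, with 1 array per mouse. All mice were 25 months old and had been on their diet for 6 months, from 19 months of age. The Rapa diet held 14 ppm of encapsulated rapamycin and the control diet held the Eudragit capsule material alone. The groups were 11 Rapa females, 9 control females, 12 Rapa males and 10 control males, and they were compared by diet within each sex, by sex within each diet, and for a difference between the sexes in the effect of the diet. Whole liver was measured, so fewer cells of a type and less RNA per cell cannot be told apart. Each array is a different mouse, and the p-values measure the spread between these mice.

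A level is log2 of the deposited signal after quantile normalization, and a probe was taken as detected on an array at a detection p under 0.05. Between 9519 and 12585 probes were detected per array. Of 7 hepatocyte genes in the table, 5 were detected on all 42 arrays. The Alb (albumin) probe used here was detected on 27 arrays, and Tat was never detected. A male-specific transcript matched the labelled sex on 42 of 42 arrays. No arrays were copies of each other (highest r between arrays 0.994). Control females 6 to 9 stood apart from the others: over 9720 probes detected on no array, their r with each other was 0.37 to 0.47, against -0.03 to 0.30 with control females 1 to 5. Control female 9 also had the highest level in its group for 5 of the 6 genes. For the 4 genes with a tested probe, comparisons that use control females are given with all mice and without control female 9. Some are also given without control females 6 to 9. For other genes some values are given without control female 9.

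The B cell receptor is an immunoglobulin on the cell surface that signals through a pair of partner chains, Cd79a (Ig-alpha) and Cd79b (Ig-beta). Src-family kinases, of which Blk is the one most restricted to B cells, phosphorylate their tails when antigen binds. Pou2af1 (OBF-1, Bob1) is a coactivator that joins octamer-binding factors on immunoglobulin promoters, Jchain is the joining chain that links secreted IgM and IgA into polymers in plasma cells, and Ly6d is a GPI-anchored surface protein that marks B-lineage commitment among lymphoid progenitors and is also made by some epithelial cells. Liver of adult mice holds B cells as a minor population beside hepatocytes, Kupffer cells and other lymphocytes.

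In the mouse annotation of RefSeq (build GRCm38.p6), Cd79a lies on chromosome 7 (24897497 to 24901858), Cd79b on chromosome 11 (106311341 to 106314562), Blk on chromosome 14 (63372837 to 63417187), Pou2af1 on chromosome 9 (51213690 to 51240079), Jchain on chromosome 5 (88519809 to 88527897) and Ly6d on chromosome 15 (74762056 to 74763567). No pair of them is on the same chromosome.

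Promoter windows of RefSeq were matched for 3 of the 6 genes. They are shown because no window was matched for the other genes, and a relation of these bases to the measured levels was not tested. Each holds 250 bases before the start of the gene and 50 bases from it, read 5′ to 3′ on the strand of the gene, from chr7:24897247-24897546 (plus strand) for Cd79a, chr9:51213440-51213739 (plus strand) for Pou2af1 and chr5:88527848-88528147 (minus strand) for Jchain in build GRCm38.p6. Capitals mark matches to an E-box of the letters CAGNTG on either strand.
Cd79a: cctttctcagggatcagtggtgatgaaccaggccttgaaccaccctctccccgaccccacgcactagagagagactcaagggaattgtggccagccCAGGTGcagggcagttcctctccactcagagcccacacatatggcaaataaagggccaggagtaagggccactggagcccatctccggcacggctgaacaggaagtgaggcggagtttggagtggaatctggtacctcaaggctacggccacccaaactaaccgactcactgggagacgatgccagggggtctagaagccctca
Pou2af1: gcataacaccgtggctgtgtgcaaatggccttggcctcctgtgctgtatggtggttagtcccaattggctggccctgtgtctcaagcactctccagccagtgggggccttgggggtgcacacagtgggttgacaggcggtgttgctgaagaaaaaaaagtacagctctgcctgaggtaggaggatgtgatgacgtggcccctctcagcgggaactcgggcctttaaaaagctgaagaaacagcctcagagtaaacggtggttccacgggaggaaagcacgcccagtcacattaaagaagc
Jchain: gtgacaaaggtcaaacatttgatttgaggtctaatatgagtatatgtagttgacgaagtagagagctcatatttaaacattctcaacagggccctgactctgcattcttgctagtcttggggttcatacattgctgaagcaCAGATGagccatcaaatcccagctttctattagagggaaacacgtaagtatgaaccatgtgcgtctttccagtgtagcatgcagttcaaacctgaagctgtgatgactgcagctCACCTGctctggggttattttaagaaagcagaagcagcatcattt
In all, 3 motifs were searched on both strands, and no match of one overlapped a match of another. The octamer ATGCAAAT occurred in 1.74% of the 32817 windows of this length, the EBF core CCCNNGGG in 13.7% and the E-box CAGNTG in 51.4%. The octamer and the EBF core had no match in the 3 windows shown. The E-box matched at -154 to -149 in Cd79a and at -109 to -104 and 6 to 11 in Jchain, counted from the gene start, and did not match in the Pou2af1 window. A match is a description of the letters and not a site of binding.

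In most of the 42 livers the genes of the B cell receptor lay near the limit of detection. Cd79a was detected on 14 arrays, and its level ran from 6.96 to 7.52 in Rapa females (median 7.14), from 6.95 to 10.04 in control females (7.19), from 6.95 to 7.53 in Rapa males (7.20) and from 6.89 to 8.68 in control males (7.20). The medians were thus alike, and the groups differed in their upper ends. The control females that stood out were number 9 (10.04), number 8 (8.75) and number 7 (8.06), and the control males were number 3 (8.68) and number 1 (8.23). These 5 control mice lay above all 23 Rapa mice, and no Rapa mouse lay above all 19 control mice. The share of all tested probes with such a count was not determined. Much the same mice recur for the correlated genes below, so the counts for those genes are not separate observations. Group means were highest in control females (7.75 ± 1.04, SD, n = 9), followed by control males (7.43 ± 0.57, n = 10), Rapa males (7.21 ± 0.16, n = 12) and Rapa females (7.21 ± 0.19, n = 11), and no neighbours in this order differed beyond their spread. Without control female 9 the control females averaged 7.47 ± 0.62 (n = 8).

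Cd79b showed the same mice at the top. Its more often detected probe (41 arrays) ran from 7.34 to 8.03 in Rapa females (median 7.67), from 7.42 to 11.19 in control females (7.95), from 7.30 to 8.65 in Rapa males (7.74) and from 7.33 to 9.80 in control males (7.82). Control female 9 had 11.19 and control female 8 had 9.66, while control males 3 and 1 had 9.80 and 9.01. These 4 control mice were above all Rapa mice, of which male 6 was highest (8.65). On the deposited linear scale, control female 9 had a signal of 1996, against a median of 186 over the control females. The order of the group means was the same as for Cd79a. They were 8.43 ± 1.25 in control females, 8.07 ± 0.75 in control males, 7.78 ± 0.31 in Rapa males and 7.67 ± 0.24 in Rapa females (SD). The ranges of all 4 groups overlapped. The control females averaged 8.08 ± 0.74 without number 9. The second Cd79b probe, detected on 17 arrays, reached 7.52 in Rapa females, 10.07 in control females, 7.68 in Rapa males and 8.75 in control males, and the same 4 control mice were above all Rapa mice. The probes of Cd79b correlated with an r of 0.97 over the 42 mice.

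Blk, the kinase, was detected only in control mice. Its first probe was detected on 3 arrays, control female 9 (8.28) and control males 1 (7.60) and 3 (7.45), and its second on 4 arrays, control females 9 (8.83) and 8 (7.90) and control males 3 (7.87) and 1 (7.62). Neither probe was detected in any of the 11 Rapa females or 12 Rapa males, where the first probe reached 7.10 in Rapa females and 7.08 in Rapa males. With so few arrays above background, Blk was not tested and no fold change is given for it. The first probe averaged 6.97 ± 0.08 in Rapa females, 7.13 ± 0.46 in control females, 6.93 ± 0.10 in Rapa males and 7.11 ± 0.24 in control males (SD). The control females averaged 6.99 ± 0.18 without number 9, and the probe was then detected in 0 of them.

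Pou2af1 was detected on 17 arrays. Its level ran from 7.02 to 7.49 in Rapa females (median 7.23), from 7.05 to 10.39 in control females (7.26), from 7.02 to 7.63 in Rapa males (7.25) and from 7.14 to 9.59 in control males (7.32). The 2 highest mice were control female 9 (10.39) and control male 3 (9.59), far above control female 8 (7.80) and control female 7 (7.77), which were the other 2 of the 4 control mice above all Rapa mice. Control male 1, high for Cd79a and Cd79b, had 7.62 for Pou2af1, just under Rapa male 11 (7.63). Group means were 7.25 ± 0.16 in Rapa females, 7.67 ± 1.06 in control females, 7.27 ± 0.19 in Rapa males and 7.55 ± 0.73 in control males (SD). Without control female 9 the control females averaged 7.33 ± 0.31, so the SD of that group rested on 1 mouse.

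Jchain, the secreted partner of polymeric immunoglobulin, was at background in nearly all livers. It was detected on 3 arrays: Rapa female 8 (7.40), control male 3 (7.32) and control male 10 (7.27). Its levels ran from 7.05 to 7.40 in Rapa females, from 6.98 to 7.36 in control females, from 6.84 to 7.12 in Rapa males and from 6.97 to 7.32 in control males. Control female 9, the highest mouse for the other genes, had 7.20 and was not above background. Jchain was not tested, and no fold change is given for it. With a single probe, a low transcript level cannot be told apart from a probe that does not report the transcript.

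Ly6d varied in all 4 groups and in other mice. Its more often detected probe (34 arrays) ran from 7.26 to 9.15 in Rapa females (median 8.45), from 7.28 to 11.08 in control females (8.06), from 7.05 to 11.01 in Rapa males (8.04) and from 7.25 to 9.33 in control males (7.52). Control female 9 was highest (11.08), but Rapa male 7 followed with 11.01, and Rapa males 6 (9.55) and 1 (9.51) were above control male 3 (9.33). Control female 8 had only 8.10. In contrast to the receptor genes, only 1 control mouse was above all Rapa mice. Group means were 8.09 ± 0.71 in Rapa females, 8.31 ± 1.24 in control females, 8.35 ± 1.18 in Rapa males and 7.73 ± 0.63 in control males (SD), and all ranges overlapped. The control females averaged 7.97 ± 0.74 without number 9. The second Ly6d probe (28 arrays) followed the first with an r of 0.99.

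**Figure D1:**
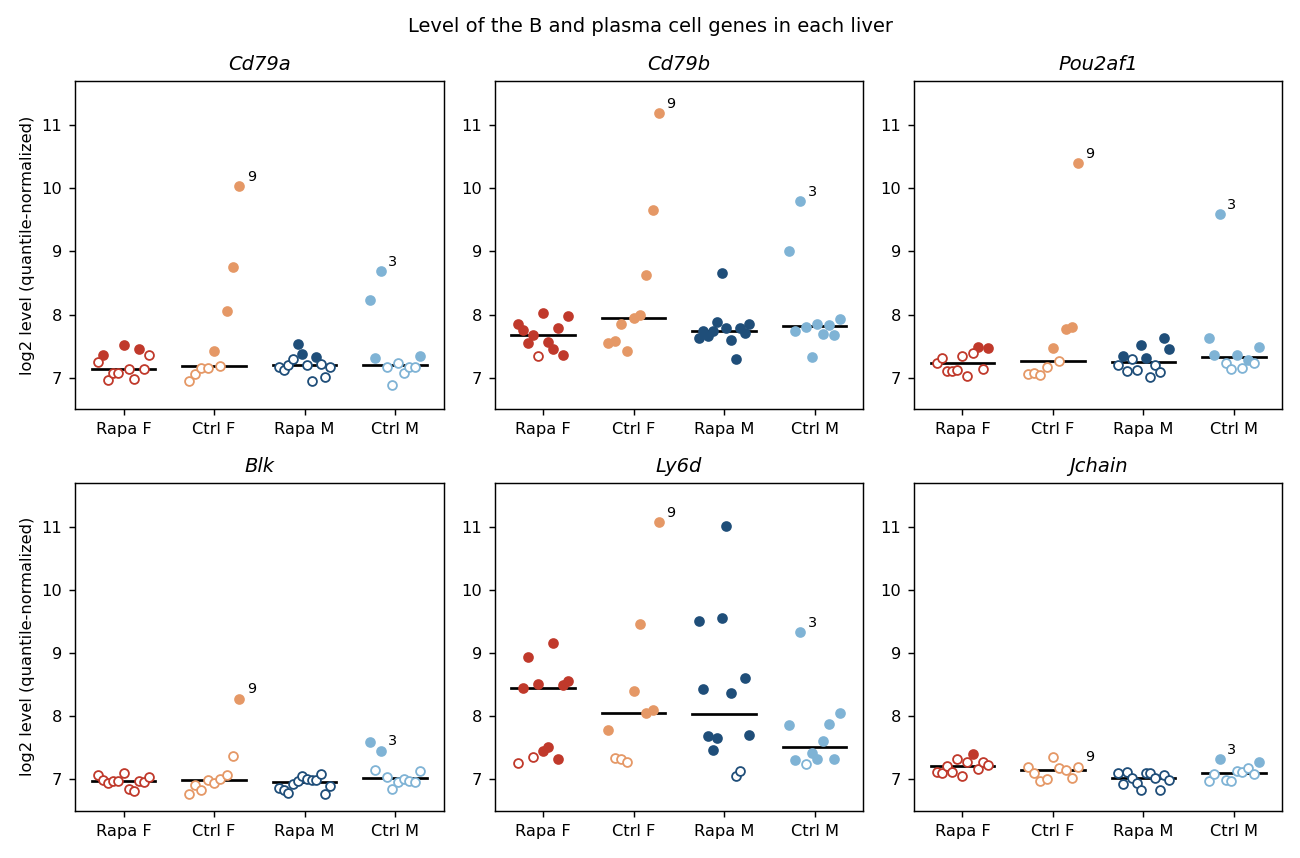
Level (log2 signal after quantile normalization, vertical axis) of 1 probe per gene in each mouse, by group. Filled points are mice in which the probe was detected, hollow points those in which it was not, and the line is the group median; control female 9 and control male 3 are numbered. For Cd79a, Cd79b, Blk and Pou2af1 a few control mice lie above all Rapa mice, with control female 9 at 10.04 for Cd79a, while Ly6d is high in mice of all groups and Jchain is near background. These control mice are mostly the same for the different genes, and the share of all probes with such a pattern was not determined.

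The question of whether Rapa changed these genes was asked first in females. None of the 6 tested probes (Cd79a, Cd79b with 2 probes, Pou2af1 and Ly6d with 2 probes) was called by limma, for which the Benjamini-Hochberg adjusted p had to be under 0.05 and the log2 ratio more than 0.15 from 0, where 21.6% of the 12719 tested probes were called (12.2% higher and 9.37% lower in Rapa females). The largest difference was that of Cd79b, 0.591-fold in Rapa females over control females (log2 ratio -0.76, SE 0.31, 95% interval -1.38 to -0.14, adjusted p = 0.0690 by limma). Its second probe gave -0.57 (SE 0.24, adjusted p = 0.0793) and Cd79a gave -0.54 (SE 0.24, interval -1.04 to -0.05, adjusted p = 0.106). Pou2af1 gave -0.42 (SE 0.27, adjusted p = 0.263) and Ly6d -0.22 (SE 0.42, adjusted p = 0.762). All 11 Rapa females were below the mean of the control females for Cd79a, Cd79b and Pou2af1, a mean that the highest control mice raised: the difference of the medians was -0.05 for Cd79a, -0.28 for Cd79b and -0.03 for Pou2af1. For Ly6d the medians ran the other way from the means, with differences of 0.40 and 0.63 for its probes. An exact permutation test of the means (two-sided, not adjusted) gave p = 0.0287 and 0.0396 for the Cd79b probes, 0.0880 for Cd79a, 0.147 for Pou2af1 and 0.653 for Ly6d.

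Without control female 9 the female differences shrank. Cd79b moved to -0.41 (adjusted p = 0.231) and -0.28 (0.267), Cd79a to -0.26 (0.351) and Pou2af1 to -0.08 (0.791), and Ly6d turned to 0.13 (0.855), all by limma over all tested probes, of which 18.9% were called. The exact permutation p-values became 0.0774 and 0.109 for Cd79b, 0.237 for Cd79a, 0.450 for Pou2af1 and 0.704 for Ly6d. Without control females 6 to 9, known from earlier results of these data to stand apart, 7.01% of probes were called. The log2 ratio was then -0.0032 for Cd79b, 0.06 for Cd79a, 0.08 for Pou2af1 and 0.47 for Ly6d, with adjusted p-values by limma of 0.614 to 0.997. The lower means of Rapa females for Cd79a, Cd79b and Pou2af1 thus rested on control females 6 to 9, of which numbers 7 to 9 had the high levels. Leaving them out removes the highest control females for these genes, so a ratio nearer 0 follows from the choice of mice. A relation between the shared array pattern of control females 6 to 9 and their levels was not tested.

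In males, 0 of the 6 tested probes were called, where 0.653% of all tested probes were (0.739% without control female 9, which changes the pooled spread). The log2 ratio of Rapa males over control males was -0.29 for Cd79b (SE 0.29, adjusted p = 0.748), -0.21 for Cd79a (SE 0.23, adjusted p = 0.765) and -0.27 for Pou2af1 (SE 0.25, adjusted p = 0.718) by limma. For each of these 3 genes, 11 of 12 Rapa males were below the control male mean. The median differences were smaller, at -0.08 for Cd79b, -0.0044 for Cd79a and -0.07 for Pou2af1. Ly6d leaned the other way, at 0.62 (SE 0.40, interval -0.20 to 1.43, adjusted p = 0.562), with 6 Rapa males above and 6 below the control male mean.

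The effect of the diet was not shown to differ between the sexes for any of these genes. The interaction called 0 of the 6 probes, with 20.4% of all tested probes called (18.7% without control female 9). It was -0.47 for Cd79b (SE 0.42, adjusted p = 0.465), -0.33 for Cd79a (SE 0.34, adjusted p = 0.536), -0.15 for Pou2af1 (SE 0.37, adjusted p = 0.821) and -0.83 for Ly6d (SE 0.58, interval -2.01 to 0.35, adjusted p = 0.332) by limma. The interval of each gene held values on both sides of 0. With control female 9 left out, the interaction was -0.13 for Cd79b, -0.04 for Cd79a, 0.19 for Pou2af1 and -0.49 for Ly6d. None of these was called.

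No member was called between the sexes either. On the control diet 0 of the 6 probes were called, where 40.2% of all tested probes were. Control females over control males gave 0.36 for Cd79b (adjusted p = 0.364), 0.33 for Cd79a (0.301), 0.13 for Pou2af1 (0.734) and 0.58 for Ly6d (0.285) by limma. Without control female 9 these fell to 0.02, 0.04, -0.21 and 0.23 (adjusted p = 0.968, 0.888, 0.379 and 0.667), with 37.6% of all tested probes called. On the Rapa diet, where 32.2% of probes were called (33.5% without control female 9), Rapa females over Rapa males gave -0.11 for Cd79b, -0.0015 for Cd79a, -0.03 for Pou2af1 and -0.25 for Ly6d, with adjusted p-values from 0.650 to 0.997, and 0 of the 6 probes were called.

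**Figure D2:**
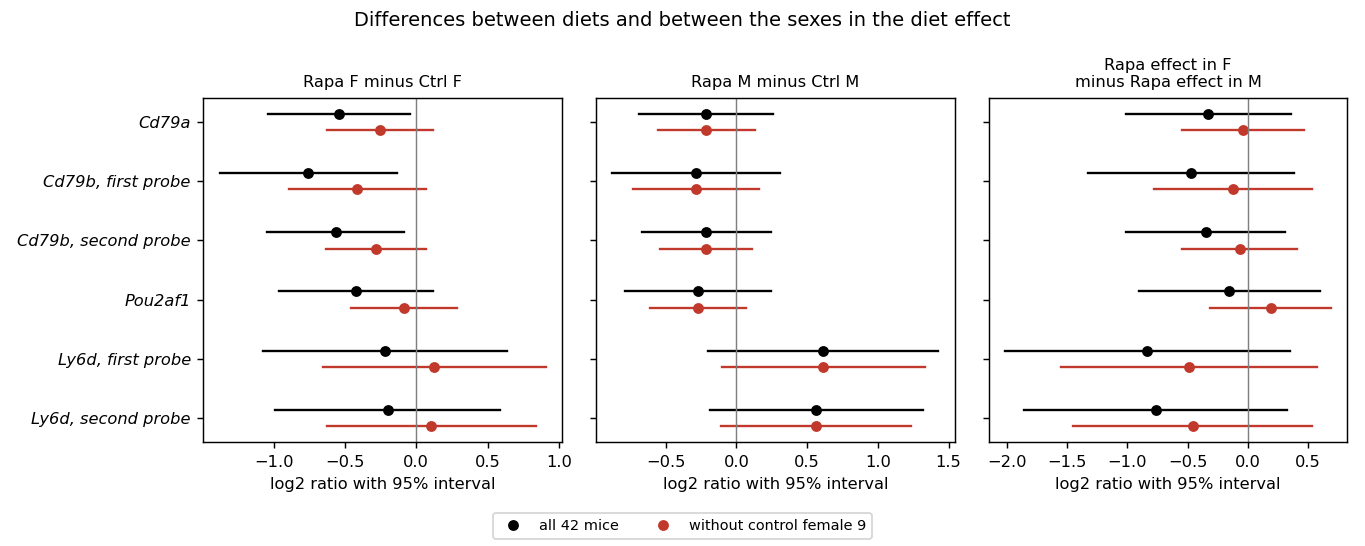
Log2 ratio with its 95% interval (horizontal axis) of the 6 tested probes in Rapa females over control females, Rapa males over control males, and the difference between these effects. Black marks use all 42 mice and red marks leave out control female 9. The Cd79b ratio in females lies at -0.76 with all mice and at -0.41 without control female 9, and no probe was called in any panel.

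Cd79a, Cd79b, Blk and Pou2af1 correlated with each other over the 42 mice, though not within every group. After the group means were removed, Cd79a and Cd79b correlated over the 42 mice with a Pearson r of 0.96 and a Spearman rho of 0.88 (adjusted permutation p of 3e-05 for each, over 15 pairs of genes, from p-values of 1e-05, the smallest that the permutations could give). The r was 0.89 without the 2 mice farthest from the median and 0.92 without control female 9. Within groups it was 0.80 in Rapa females, 0.99 in control females, 0.34 in Rapa males and 0.99 in control males, so the relation was closest where some mice were high. Cd79a correlated with Blk at 0.92 and with Pou2af1 at 0.88 (adjusted permutation p = 3e-05 each), and with Pou2af1 it was 0.64 in Rapa females and -0.10 in Rapa males. Without control female 9 these values were 0.85 for Blk and 0.76 for Pou2af1. Blk and Pou2af1 formed the weakest of these pairs, with an r of 0.82 (rho 0.61, adjusted permutation p of 0.0030 and 0.0017), which was 0.56 without control female 9. Within groups that pair gave 0.30 in Rapa females, 0.98 in control females, -0.29 in Rapa males and 0.65 in control males. The Blk probe was detected on only 3 of the 42 arrays, so most of its values lie below the limit of detection.

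Ly6d and Jchain followed the other genes less closely over the 42 mice, a difference that was not itself tested. Ly6d correlated with Cd79a at an r of 0.44 (rho 0.14, adjusted permutation p of 0.0214 and 0.428), and the r was 0.17 without the 2 farthest mice and 0.16 without control female 9, so that it rested on those mice. With Pou2af1 the r of Ly6d was 0.60 (rho 0.40, adjusted permutation p of 0.0016 and 0.0087), and 0.40 without control female 9. With Cd79b it was 0.53 (rho 0.26, adjusted permutation p of 0.0044 and 0.141) and with Blk 0.48 (rho 0.19, adjusted permutation p of 0.018 and 0.307), and these were 0.31 and 0.18 without control female 9. Within groups, the r of Ly6d with these 4 genes lay between -0.51 and 0.06 in Rapa females, 0.74 and 0.85 in control females, -0.18 and 0.36 in Rapa males, and 0.63 and 0.92 in control males. Jchain correlated with Cd79a at 0.04, with Cd79b at 0.01, with Blk at -0.03 and with Pou2af1 at 0.26, and none of these passed the test. Jchain and Ly6d correlated with each other at 0.46 (rho 0.49, adjusted permutation p of 0.0044 and 0.0026), with most Jchain values below the limit of detection.

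**Figure D3:**
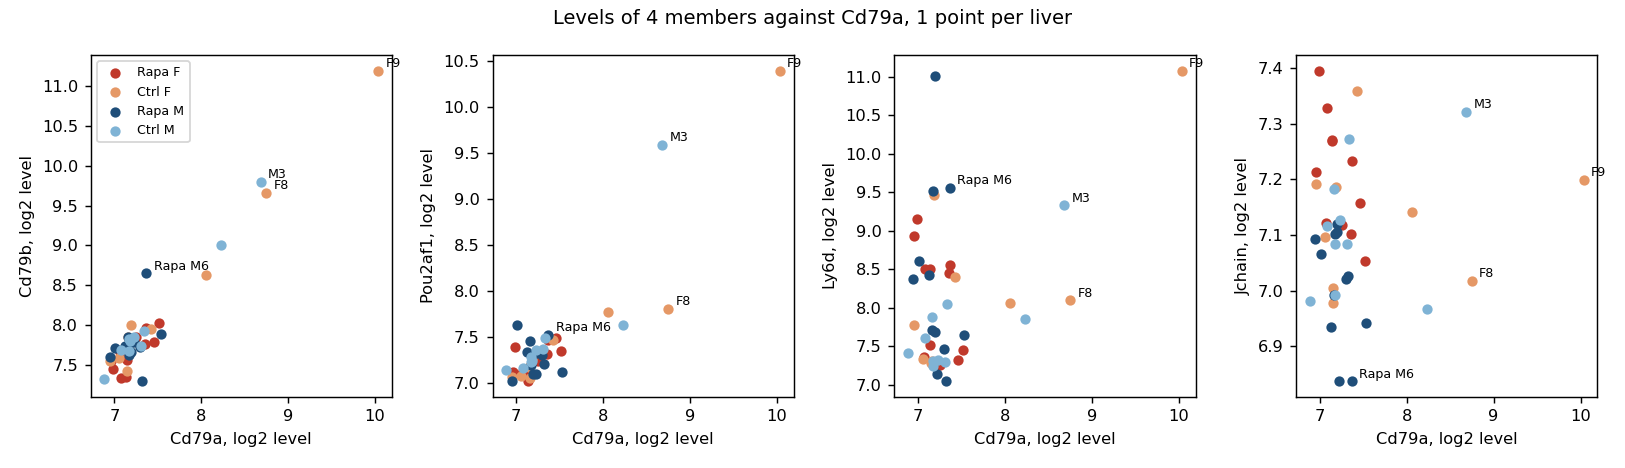
Levels (log2) of Cd79b, Pou2af1, Ly6d and Jchain against that of Cd79a in the 42 mice, coloured by group, with control females 8 and 9, control male 3 and Rapa male 6 labelled by sex and number. Cd79b rises with Cd79a through control females 7, 8 and 9 and control males 1 and 3, Pou2af1 is high mainly in control female 9 (10.39) and control male 3 (9.59), and Ly6d reaches 11.01 in Rapa male 7, where Cd79a was 7.20.

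The tested genes whose pattern over the 42 mice was most like that of each member, again after removing group means, were named by the highest r. For Cd79a they were Gpr18 (0.93), Fcmr (0.93) and Cxcr5 (0.92), for Cd79b Tbc1d10c (0.93), Cd22 (0.93) and H2-Ob (0.92), and for Pou2af1 H2-Ob (0.94), Csk (0.94) and Mzb1 (0.94). For Ly6d they were Tgm2 (0.88), Stmn1 (0.86) and Plk1 (0.83), none of which was named for the other members. Over the 41 mice without control female 9, Fcrla led for Cd79a (0.94) and for Cd79b (0.92), Mzb1 for Pou2af1 (0.94) and Tgm2 for Ly6d (0.865). Ttc39a (0.829) and Tmem43 (0.828) then followed Tgm2 for Ly6d, in the place of Stmn1 and Plk1. These values are descriptions, given without a test.

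Genes of B cell receptor signalling and the B cell surface were taken from a list chosen with earlier results known. Of 21 listed genes 15 were in the table and 11 were tested. In Rapa females over control females 0 of the 11 were called, against 21.6% of all tested probes. The median log2 ratio of the 11 was -0.18, beside 0.02 over all tested probes. Cd22, an inhibitory coreceptor, gave -0.40 (adjusted p = 0.0789 by limma). Fcrla, an Fc receptor-like protein inside B cells, gave -0.41 (adjusted p = 0.114 by limma). Dapp1, an adaptor of the receptor pathway, gave -0.17 (adjusted p = 0.0515 by limma). With control female 9 left out, the median of the list was -0.07. Cd22, Fcrla and Dapp1 then gave -0.18, -0.32 and -0.10 (adjusted p = 0.252, 0.251 and 0.172 by limma). Cd22 reached 7.77 in Rapa females, 9.74 in control females, 7.76 in Rapa males and 8.29 in control males, with control female 9 and control male 3 at the top. Fcrla reached 7.69 in Rapa females, 9.01 in control females (number 8), 7.58 in Rapa males and 8.94 in control males (number 3). Control female 9 was the highest control female for 9 of the 11 genes and control male 3 the highest control male for 8 of them. Other mice led for Ptpn6 (Rapa female 9) and Fcgr2b (control female 7), which were chosen for mention after their values were seen. In males 0 of the 11 were called, against 0.653% of all tested probes, and the median was 0.03.

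On the control diet 6 of these 11 genes were called between the sexes, all higher in females. Of all tested probes 40.2% were called, in either direction. Among the 6 were Fcgr2b, the inhibitory Fc receptor that sinusoidal endothelium of the liver also makes (log2 ratio 0.39, adjusted p = 0.0019), and Ms4a1, which encodes CD20 (0.17, adjusted p = 0.0079), both by limma. With control female 9 left out, only 1 of the 11 was called, against 37.6% of all tested probes. On the Rapa diet 1 of the 11, Fcgr2b, was higher in females (0.35, adjusted p = 0.0026 by limma), where 32.2% of all tested probes were called in either direction.

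Of 13 B cell transcription factors 5 were tested. In Rapa females over control females 0 of the 5 were called, against 21.6% of all tested probes. Spib gave -0.30 (adjusted p = 0.0962) and Irf8, which Kupffer cells and other myeloid cells express too, -0.45 (0.138) by limma. Leaving out control female 9 changed these to -0.12 and -0.16 (adjusted p = 0.311 and 0.469 by limma). Bcl6, a repressor of germinal centre B cells that is also a sex-biased factor of hepatocytes, was the 1 gene that rose in Rapa males (1.10, SE 0.28, adjusted p = 0.0436), and it was lower in Rapa females than in Rapa males (-1.12, adjusted p = 0.0011), both by limma. Irf8 was higher in control females than in control males (0.55, adjusted p = 0.0452 by limma), a call that was lost without control female 9. Over all tested probes 0.653% were called for the diet in males. Between the sexes 32.2% were called on the Rapa diet and 40.2% on the control diet.

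Among 14 survival and homing genes 8 were tested and 0 were called for the diet in either sex. Over all tested probes 21.6% were called for the diet in females and 0.653% in males. Cxcr5, the receptor that leads B cells to follicles, gave -0.36 in females (adjusted p = 0.0705) and Ltb, a lymphotoxin of lymphocytes, -0.33 (0.176) by limma. With control female 9 left out, Cxcr5 gave -0.22 and Ltb -0.08 (adjusted p = 0.231 and 0.608 by limma). Cxcl13, the ligand of Cxcr5, was chosen for mention after its values were seen. It ran from 7.92 to 12.42 in Rapa females, from 7.53 to 12.38 in control females, from 7.30 to 11.60 in Rapa males and from 7.86 to 11.14 in control males, and its ratio was -0.08 in females and 0.09 in males. It was thus high in Rapa as well as control mice, with Rapa female 3 and control female 8 highest. Tnfrsf17 (BCMA), a survival receptor of plasma cells, was higher in females than in males on the control diet (1.07, adjusted p = 4.55e-11) and on the Rapa diet (0.83, adjusted p = 2.12e-09), and Cxcl12 was lower (-0.20 and -0.19), all called by limma. Between the sexes 40.2% of all tested probes were called on the control diet and 32.2% on the Rapa diet.

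Of 19 listed plasma cell and secretion genes 13 were tested, and 3 were called in Rapa females over control females, a share near the 21.6% called over all tested probes. Sdc1 (syndecan-1, CD138), a plasma cell marker that hepatocytes carry too, rose (0.51, adjusted p = 0.0044), as did Edem1 of endoplasmic reticulum degradation (0.27, adjusted p = 0.0273), while Sec11c of the signal peptidase fell (log2 ratio -0.72, adjusted p = 9.46e-04), all by limma. The Edem1 call was lost without control female 9 (adjusted p = 0.0707 by limma). In males 0 of 13 were called, against 0.653% of all tested probes, with Creld2 the closest (-0.86, adjusted p = 0.102 by limma).

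Mzb1, a chaperone of immunoglobulin assembly in B and plasma cells, followed Pou2af1. It ran from 7.27 to 8.40 in Rapa females (median 7.85), from 7.36 to 11.54 in control females (8.50), from 7.11 to 7.92 in Rapa males (7.49) and from 7.38 to 11.30 in control males (7.69). Control female 9 and control male 3 were highest and the ranges overlapped. The ratio was -0.91 in females (adjusted p = 0.0732) and -0.58 in males (adjusted p = 0.527), and -0.55 in females without control female 9 (adjusted p = 0.236), by limma. Control male 3 also had the highest level of all mice for Creld2, Fkbp11, Txndc5 and Ssr4, at 1.90, 1.44, 0.65 and 0.76 above the median of all mice. Of the 37 tested genes of these 4 lists, 19 were highest in control female 9, 4 in control male 3 and 10 in a Rapa mouse. How often control female 9 was highest over all tested probes was not counted. These counts therefore cannot show a trait particular to B lineage genes.

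Of 7 Src-family kinases and 14 Ly6-family genes only 2 each were tested, and 0 were called for the diet in either sex. For the diet 21.6% of all tested probes were called in females and 0.653% in males. The Ly6 genes Ly6c1 and Ly6e were higher in control females than in control males (0.90 and 0.65, adjusted p = 0.0454 and 0.0419 by limma), in a comparison with 40.2% of all tested probes called in either direction. Neither was called without control female 9. No symbol of an immunoglobulin heavy or light chain gene was matched, and those genes were not analysed here.

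**Figure D4:**
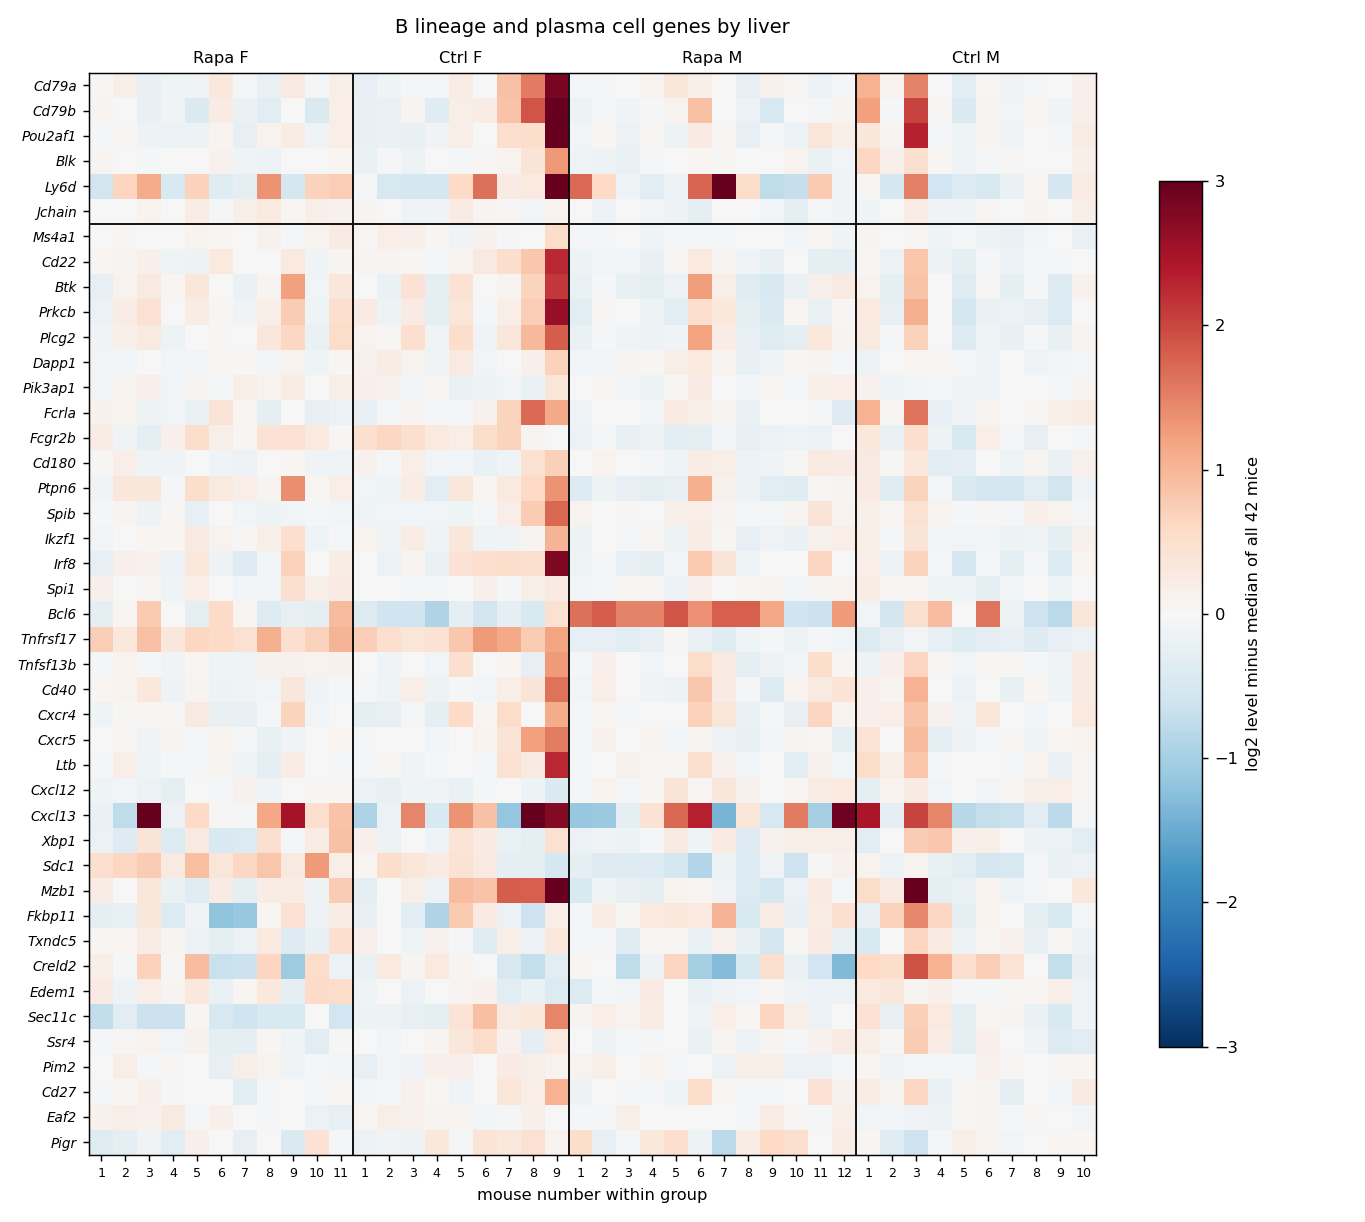
Level of the 6 genes and of 37 tested genes from the B cell and plasma cell lists in each of the 42 mice, as the difference from the median of all mice on the log2 scale (colour, with values past the ends of the scale drawn at its ends). Control female 9 holds the highest level of 19 of the 37 list genes, and Mzb1 lies 3.90 above the median in control female 9 and 3.67 above it in control male 3. The share of all tested probes that are highest in control female 9 was not counted.

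Genes of other cell types were high in some of the same mice. Over their lists, the mean level of control female 9 was above the median of all mice by 4.37 for 12 neutrophil genes, 2.37 for 9 MHC class II genes and 1.29 for 10 T and NK cell genes, and it was the highest of the 42 mice for each. Control male 3 was above by 0.85, 1.01 and 0.53, and control female 8 by 0.13, 0.92 and 0.23. MHC class II is also made by B cells, and the part of these cell types in the levels of Cd79a, Cd79b and Pou2af1 was not tested.

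The reverse did not hold in every mouse. Rapa female 9 had a mean neutrophil level of 11.89 with Cd79a at 7.46, and control female 5 had one of 12.00 with Cd79a at 7.42, both close to the 12.35 of control female 9. Rapa male 6 had means of 8.67 for T and NK cells, 10.65 for MHC class II and 11.51 for Kupffer cells and macrophages, with Cd79a at 7.37 and Cd79b at 8.65. In Rapa females over control females 1 of 10 T and NK cell genes was lower (Prf1, -0.84, adjusted p = 8.22e-06), 1 of 9 MHC class II genes (H2-Aa, -1.39, adjusted p = 0.0020), 1 of 9 Kupffer cell and macrophage genes (Adgre1, -0.56, adjusted p = 0.0482, and 0.0875 without control female 9) and 0 of 12 neutrophil genes, by limma. Over all tested probes 9.37% were called lower, so single calls in lists of this size are near that share.

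**Figure D5:**
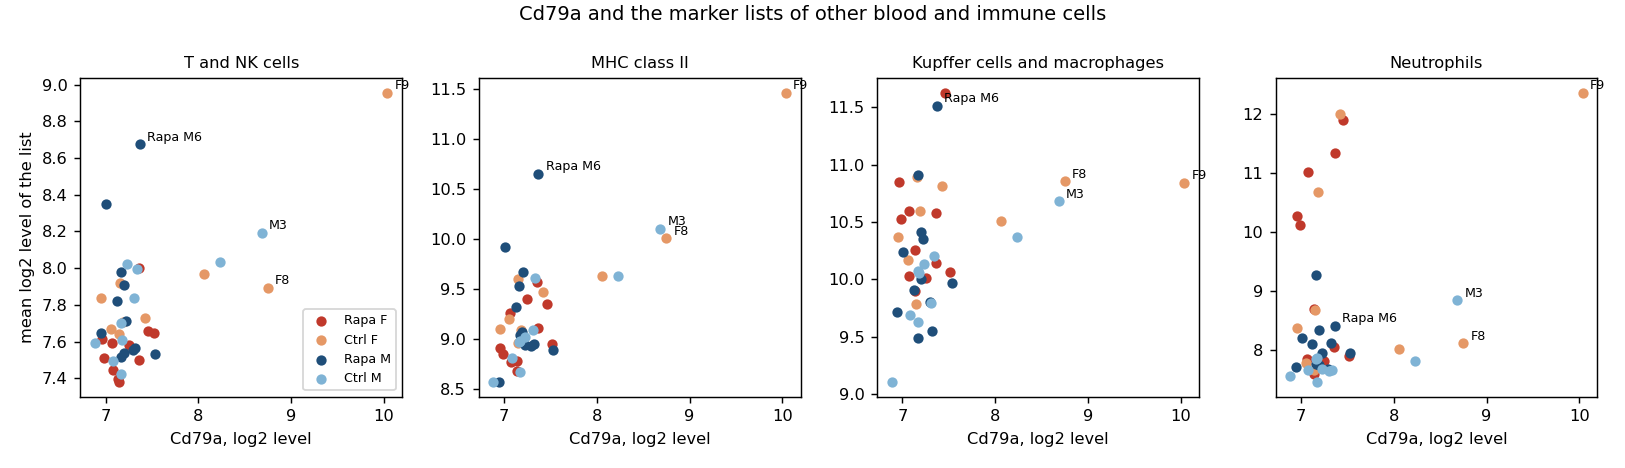
Mean level (log2) of the tested genes of the T and NK cell, MHC class II, Kupffer cell and macrophage, and neutrophil lists (vertical axes) against the level of Cd79a (horizontal axis) in the 42 mice, coloured by group, with the same 4 mice labelled as in the plot of gene pairs. Control female 9 is highest for Cd79a and for 3 of the 4 lists, while Rapa male 6 is high for T and NK cell, MHC class II and Kupffer genes with Cd79a at 7.37.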

How the data were processed

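Total RNA of frozen liver was hybridized to Illumina Mouse Ref8 v2 arrays. With Genome Studios the authors read a bead intensity per probe. They deposited this intensity as a linear signal, not normalized, beside a detection score, a fraction from which the detection p was taken here as 1 minus the score. The authors also deposited log2 values of 17082 probes, quantile-normalized in Matlab. Slides and scan dates were not given in the sources used.

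Here log2 of each signal was quantile-normalized over 25697 probes and 42 arrays. A probe entered the tests if its detection p was below 0.05 on 9 or more arrays, which 12719 did. They were fitted with limma 3.58.1 in R 4.3.3 (statmod 1.5.0), with 4 group means and 1 pooled variance per probe. Adjusted p-values are those of Benjamini-Hochberg over all tested probes, and a call needed one below 0.05 with a log2 ratio more than 0.15 from 0. The fit was tested on simulated data. Correlations used levels minus group means, 1 probe per gene (highest mean level) and 100000 permutations within groups.

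The members and gene lists were chosen with earlier results of these data known. Named are all member probes, up to 3 genes of each list by lowest adjusted p in Rapa females over control females (up to 2 in other comparisons), and the 3 genes most correlated with each tested member. Lists took 1 probe per gene. The number of arrays limits the precision. Alternatives covered normalization, background correction, detection filters, array weights, blocks, thresholds and leaving out each mouse.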

Additional observations from a re-analysis of the deposited data

Results flagged for a closer look

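In 6 cases a single mouse stood far from the others of its group, judged by its gap to the nearest mouse as a share of the range of the group. Only the control groups were small enough for this measure, which gave 18 sets of values for the 9 probes. Chance alone marks about 1 set in 20 where the sets are independent and normally spread. Sets of correlated probes share the same mice, so the number of cases cannot be compared with that rate. Control female 9 was such a mouse for Pou2af1 (gap 0.775 of the range, at a level of 10.39) and for the first Blk probe (0.6, at 8.28). Control male 3 was one for Pou2af1 (0.803, at 9.59), for both Ly6d probes (0.616 and 0.575, at 9.33 and 9.02) and for the second Cd79b probe (0.471, at 8.75). All 6 were the highest mouse of a control group.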

How the results depend on the processing

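The count of 0 called member probes in each comparison held under the alternatives run, with these exceptions. Without the detection filter 1 probe, Jchain, was called in Rapa females over Rapa males (adjusted p = 0.0011 by limma), though it was detected in only 1 of these 23 mice. Leaving out each mouse gave 0 to 2 called probes in Rapa females over control females. Cd79b was called without control male 3 (-0.76, adjusted p = 0.0464), without control female 1 (-0.87, 0.0394), control female 2 (-0.86, 0.0410) or control female 4 (-0.88, 0.0349), by limma. A filter of detection on all 42 arrays left no member probe, so it gave no value. Apart from leaving out each mouse, the alternatives gave Rapa females over control females log2 ratios of -0.95 to -0.0032 for Cd79b. For Cd79a they gave -0.76 to 0.064, so the size of these ratios depends on the processing and on the mice kept.

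Changes of sign were between values that were not called. For Rapa females over Rapa males, Cd79a turned to 0.0020 with the deposited log2 values and to 0.0065 with runs of consecutive animal numbers fitted as a random block. Without normalization, control females over control males turned to -0.023 for Cd79b and -0.18 for Pou2af1. Array weights gave 0.32 for Ly6d in Rapa females over control females, 0.060 for Pou2af1 in the interaction and -0.072 for Pou2af1 in control females over control males. Without control females 6 to 9, Rapa females over control females turned to 0.064 for Cd79a, 0.082 for Pou2af1 and 0.47 for Ly6d, the interaction to 0.28 for Cd79a, 0.28 for Cd79b and 0.35 for Pou2af1, and control females over control males to -0.28 for Cd79a, -0.39 for Cd79b, -0.38 for Pou2af1 and -0.11 for Ly6d. Leaving out each mouse, signs changed for Rapa females over Rapa males in Cd79a (-0.032 to 0.028) and Pou2af1 (-0.050 to 0.0062), for Rapa females over control females in Ly6d (-0.35 to 0.13), for the interaction in Pou2af1 (-0.38 to 0.19) and for control females over control males in Pou2af1 (-0.21 to 0.35). The causes were not tested. Differences of group medians, chosen after seeing the data, were -0.05 for Cd79a in Rapa females over control females. They took the other sign for Ly6d in Rapa females over control females (0.40), for Cd79a (-0.015) and Pou2af1 (-0.060) in control females over control males, and for Pou2af1 in the interaction (0.041). Median centring moved the median of all ratios to -0.13 in males and -0.14 in control females over control males, and to 0.19 in the interaction.

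With the replicate number as a block, 0 member probes were called, and the log2 ratio of Rapa females over control females was -0.75 for Cd79b (adjusted p = 0.111) and -0.53 for Cd79a (0.156) by limma. Same-numbered mice deviated together at an r over 0.1 in 6 of 9 female and 6 of 10 male pairs. Differently numbered mice were not compared in this way, so these values cannot show whether the numbers pair the mice.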
